A study of Mus musculus with 8 samples.

Results

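The genes described here are 10 antioxidant and thioredoxin genes, namely Sod1, Sod2, Cat, Gpx1, Gpx4, Prdx1, Prdx5, Txn1, Txnip and Nfe2l2, in leukemic stem cells (LSCs) of mice with a disease like chronic myeloid leukemia (CML). They were taken from the table by symbol, from a list of names written with earlier results of these data known, and all 10 were found among the 15576 genes of the table. The LSCs came from BCR-ABL×SCL-tTA double transgenic C57BL/6 mice, in which Scl regulatory sequence drives the tetracycline transactivator and BCR-ABL is expressed in stem cells once tetracycline is withdrawn. CML mice were left untreated, whereas CML-TKI mice received imatinib, a tyrosine kinase inhibitor (TKI), by gavage every other day at 400 mg/kg for 4 weeks in the sample labels (their treatment note has 30 days). The paper also names a lower dose and gives it in the figure legend for its LSC RNA-seq, so the dose these mice received is uncertain. Bone marrow cells lacking lineage markers and Flt3 and carrying Sca1 and cKit were sorted in both groups, and 4 CML and 4 CML-TKI libraries were sequenced. Both groups carry the transgenes, ages are not given, and nothing states that the libraries of a group came from separate animals, so the p-values measure only the spread between these libraries.

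Txnip was the member that changed. It was 3.81-fold lower in CML-TKI LSCs, and every CML-TKI library lay below every CML library. The name LSC is the study's, and the markers go against it in the CML-TKI libraries. There the stem cell markers summed to 48.7 to 451 CPM (library-scaled counts) against 1424 to 1578 CPM in CML, and granulocyte and monocyte markers were higher. Their part in the Txnip difference was not tested. The enzymes that break down superoxide and peroxides, namely Sod1, Sod2, Cat, Gpx1, Gpx4, Prdx1 and Prdx5, did not pass the test, nor did thioredoxin (Txn1) or the transcription factor gene Nfe2l2. Of the 10 members, 1 had an adjusted p under 0.05 (0 higher and 1 lower in CML-TKI), where 10.2% of the 11937 genes tested did, 6.29% higher and 3.93% lower. Without overlap between the groups there was 1 member, lower in CML-TKI, where 23.4% of all genes tested did not overlap, 10.3% being higher and 13.1% lower. The members' share is thus close to the background for the first count and below it for the second. The median log2 fold change of the members was 0.10, beside -0.00026 over all genes tested.

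As background, reactive oxygen species arise largely from mitochondria and from NADPH oxidases, and hematopoietic stem cells are known for keeping them low. Superoxide dismutases turn superoxide into hydrogen peroxide, which catalase, glutathione peroxidases and peroxiredoxins then remove. Glutathione peroxidases draw their electrons from glutathione and most peroxiredoxins from thioredoxin, while the NADPH behind both comes in large part from the pentose phosphate pathway. TXNIP is an alpha-arrestin that binds reduced thioredoxin and promotes the uptake of glucose transporters from the cell surface, and its gene is known to be switched on by the glucose-sensing factors MondoA (Mlxip) or ChREBP (Mlxipl) with their partner Mlx. NRF2, the product of Nfe2l2, is held down by KEAP1 and activates many antioxidant genes through antioxidant response elements.

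Because Txnip carried the difference, the 250 bases before its start are shown, with those before Arrdc4, an alpha-arrestin gene known to be induced by the same factors, for comparison. The sequences come from RefSeq on GRCm38.p6, read 5′ to 3′ along the gene. The letters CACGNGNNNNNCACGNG, a pair of half-sites as the carbohydrate response element has, were searched on both strands and are in capitals for Txnip. For Arrdc4 the capitals mark CACGTG, which is itself one form of the half-site CACGNG.
Txnip, chr3:96557707-96557956, plus strand: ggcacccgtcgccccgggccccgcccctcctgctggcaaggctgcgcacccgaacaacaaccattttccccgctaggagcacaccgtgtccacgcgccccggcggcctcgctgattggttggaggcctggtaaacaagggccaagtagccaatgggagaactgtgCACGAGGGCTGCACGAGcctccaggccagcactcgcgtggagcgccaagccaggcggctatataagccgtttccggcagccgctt
Arrdc4, chr7:68749239-68749488, minus strand: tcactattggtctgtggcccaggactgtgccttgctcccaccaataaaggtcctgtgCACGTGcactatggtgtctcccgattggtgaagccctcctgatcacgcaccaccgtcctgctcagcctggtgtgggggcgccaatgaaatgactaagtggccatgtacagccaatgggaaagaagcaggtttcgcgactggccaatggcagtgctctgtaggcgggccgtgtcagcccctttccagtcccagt

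In Txnip the pair lay from base -85 to base -69 before the start. The single half-site CACGNG was found in 23.5% of windows and in those of 5 of the 10 members, so it is common. The pair was found in 15 of 32851 windows of the same length, or 0.046%, and neither in the window of another member nor in that of Arrdc4. CACGTG was found in 6.02% of windows, among them Arrdc4 at bases -193 to -188, and in those of none of the 10 members. The forkhead core GTAAACA, present in 3.17% of windows, occurred in Txnip at base -121 and in no other member. These motifs were chosen with the known biology of these genes in mind, and a match describes letters and not a bound site.

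The core of the antioxidant response element, TGACNNNGC, was found in 10.2% of windows and in those of 3 of the 10 members. It is in capitals below with 10 bases on either side, and in Sod1 and Prdx1 it reads on the opposite strand.
Sod1, chr16:90220696-90220724, plus strand: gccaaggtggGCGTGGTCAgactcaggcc
Prdx1, chr4:116685456-116685484, plus strand: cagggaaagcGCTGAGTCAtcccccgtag
Nfe2l2, chr2:75704885-75704913, minus strand: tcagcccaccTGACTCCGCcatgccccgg

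None of these 3 members passed the test between the groups, and the Arrdc4 window holds the core too, at base -28. CCAAT, a common promoter element, was found in 33.9% of windows and in 5 of the 10 members.

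Some facts of the libraries bear on all members. Estimated read counts totalled between 1041560 and 8620100 per library, with the lowest in CML-TKI 3 and the highest in CML 5, and the ribosomal RNA gene Rn45s held 20.2% to 38.3% of them in CML and 9.23% to 22.5% in CML-TKI. Levels below are CPM, counts scaled to a common library size with TMM factors, where 3 counts correspond to 0.409 to 0.580 CPM in CML and to 0.570 to 3.29 CPM in CML-TKI libraries. The members were far above this, from 25 counts (Sod1 in CML-TKI 3, exact Poisson interval 16.2 to 36.9 at 95%, counting error only) to 5186 (Txnip in CML 5). The fourth CML column is numbered 5, a number that the labels do not use. The labels give a CD150-negative, CD48-positive gate, whereas the paper's LSCs are CD48-negative and CD150-positive.

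The labelled cell type was checked against lists of markers. Sums are over the genes of a list that were tested. The 9 stem cell markers tested, of 10 listed, summed to 1424 to 1578 CPM in CML and to 48.7 to 451 CPM in CML-TKI libraries, with 4 lower and 0 higher. Conversely, the granulocyte list, including Elane and Mpo, summed to 162 to 266 CPM in CML and to 1459 to 8434 CPM in CML-TKI, and 10 of its 11 genes were higher. All 8 monocyte genes were higher as well, with sums of 18.5 to 30.9 and 751 to 4025 CPM. Of 6 B cell genes only 1 was tested, Cd79b, at 16.1 to 20.3 CPM in CML and 13.7 to 34.0 CPM in CML-TKI. Of 6 T cell genes only 2 were tested, Lck and Cd4. They summed to 5.98 to 10.2 CPM in CML and to 8.93, 0, 58.1 and 18.5 CPM in CML-TKI 1 to 4. Of the gate genes, Kit was lower (log2 fold change -1.92, adjusted p = 8.70e-04), Slamf1 (CD150) was lower (-3.42, adjusted p = 0.00797) and Cd48 was higher (4.35, adjusted p = 8.70e-04), while Ly6a and Flt3 did not pass the test (adjusted p = 0.373 and 0.522, all by edgeR's quasi-likelihood test). In bulk samples a change in the mix of cells and a change in RNA per cell cannot be told apart, and the part of these cells in any difference below was not tested.

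**Figure D1:**
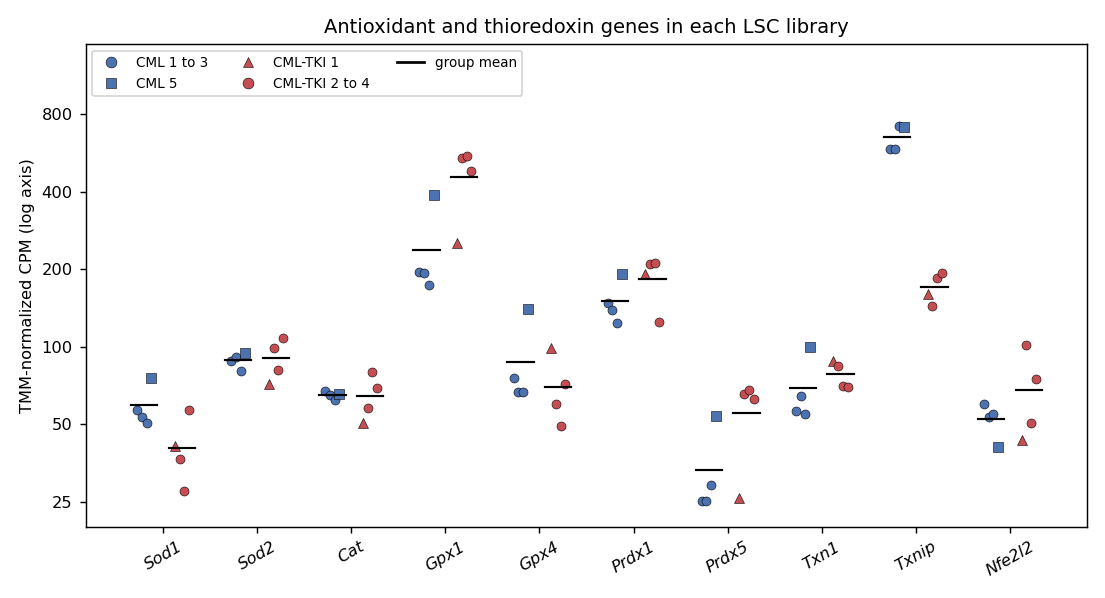
TMM-normalized CPM (log axis) of the 10 members in each library, with CML in blue, CML-TKI in red and black bars for group means of 4 libraries. Only for Txnip do the groups lie apart, at 584 to 718 against 144 to 194 CPM, and CML 5 (squares) lies above the other CML libraries in Gpx1, Gpx4 and Prdx5.

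To ask whether redox genes differed between untreated and imatinib-treated LSCs, each member was first read library by library. Txnip (chromosome 3, 96557957 to 96561857 of GRCm38.p6, plus strand) had 584, 584, 718 and 713 CPM in CML 1, 2, 3 and 5 and 160, 144, 184 and 194 CPM in CML-TKI 1, 2, 3 and 4. The groups were thus far apart, and each had a narrow spread, 649.8 ± 76.2 CPM (SD, n = 4) against 170.4 ± 22.7 CPM (SD, n = 4). The log2 fold change was -1.93 (SE 0.20, 95% interval -2.37 to -1.49, adjusted p = 8.04e-04 by edgeR's quasi-likelihood test), which placed Txnip at rank 30 of the 11937 genes by p-value. An exact two-sided permutation test over the 70 relabelings gave p = 0.0286, the smallest that 4 against 4 libraries allow.

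The Txnip difference kept its size across libraries and settings. Over 18 alternatives, the log2 fold change ran from -2.06 to -1.84, and the adjusted p stayed at or under 0.0315 in each. With each library left out in turn it ran from -2.004 to -1.864, with an adjusted p of at most 0.00535. CML-TKI 1, which for many genes lay between CML and the other CML-TKI libraries, did not do so for Txnip. Its Txnip level was 106% of the way from the CML mean to the mean of CML-TKI 2 to 4 in log2 CPM, whereas the median over all genes past the threshold was 66.1% (quartiles 48.3% and 94.2%). In that library the granulocyte list stood at 1459 CPM and the monocyte list at 751 CPM, against at least 7880 and 2189 CPM in CML-TKI 2 to 4. These sums were still above those of every CML library, and the stem cell list stood at 451 CPM in CML-TKI 1.

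An antisense gene, Gm15441, overlaps 3927 bases of Txnip, and the library kit does not mark strand, so reads of the pair cannot be told apart. The deposited table puts at most 6.82 counts per library on Gm15441 and between 168 and 5186 on Txnip. Prdx5 overlaps Trmt112 over 409 bases and Sod1 overlaps Scaf4 over 650 bases, each on the opposite strand. Trmt112 had 17.8 to 298 counts per library and Scaf4 21 to 407, in the range of the members they overlap, so Prdx5 and Sod1 are less certain for this reason. Prdx5 and Txnip were among the 3 members with values more than 0.01 from a whole number, as estimated counts shared between transcripts can be.

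Among the superoxide dismutases, Sod1 encodes the copper-zinc enzyme of the cytosol and Sod2 the manganese enzyme of mitochondria. Sod1 had 56.8, 53.3, 50.6 and 75.8 CPM in CML and 41.0, 36.6, 27.4 and 56.7 CPM in CML-TKI, so that only CML-TKI 4 reached into the CML range. Its log2 fold change of -0.54 (SE 0.27, 95% interval -1.15 to 0.076) did not pass the test (adjusted p = 0.255). Sod2 had 87.6, 91.3, 80.6 and 94.6 CPM in CML and 71.4, 98.9, 81.1 and 108.5 CPM in CML-TKI. The CML values lie within the CML-TKI range, and the log2 fold change was 0.025 (SE 0.20, 95% interval -0.43 to 0.48, adjusted p = 0.957).

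Both members were also set against each other within a library. The log2 ratio of Sod2 over Sod1 was 0.59 ± 0.19 (SD, n = 4) in CML and 1.16 ± 0.36 (SD, n = 4) in CML-TKI, a difference of 0.57. All 4 CML-TKI ratios, from 0.79 to 1.53, lay above all CML ratios, from 0.32 to 0.77, though by a narrow margin at the edge. The exact permutation p was 0.0286, and 0.0714 after adjustment over the 5 ratios tested, so it did not pass.

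Catalase, the peroxisomal enzyme that splits hydrogen peroxide without an electron donor, was the steadiest member in CML. Cat had 67.1, 64.9, 61.8 and 65.7 CPM there, with a coefficient of variation of 3.45%. In CML-TKI it had 50.3, 58.0, 80.0 and 69.2 CPM, with values on both sides of the CML range (log2 fold change -0.019, SE 0.21, 95% interval -0.49 to 0.45, adjusted p = 0.970). The highest value was in CML-TKI 3, where the hemoglobin genes of the erythroid list summed to 49315 CPM, against 25.1 to 262 CPM in the other 7 libraries. Of the same list, Alas2 (1063 CPM) and Tfrc (213 CPM) were also above every CML library there. Klf1 (5.48 CPM), Gata1 (40.6 CPM), Epor (1.10 CPM), Car1 (4.38 CPM) and Car2 (130 CPM) were below every CML library. Red cells are rich in catalase, and the part of their transcripts in the Cat value of CML-TKI 3 was not tested.

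The glutathione peroxidases Gpx1 and Gpx4 are selenoproteins. Gpx1 reduces hydrogen peroxide in the cytosol and mitochondria, and Gpx4 reduces lipid peroxides in membranes and restrains ferroptosis. Gpx1 had 194, 194, 174 and 390 CPM in CML 1, 2, 3 and 5 and 252, 542, 551 and 483 CPM in CML-TKI 1 to 4. CML-TKI 2 to 4 were above every CML library, but CML 5 exceeded CML-TKI 1. The means were 237.9 ± 102 CPM (SD, n = 4) and 457 ± 140 CPM (SD, n = 4), and the log2 fold change of 0.94 (SE 0.34, 95% interval 0.19 to 1.69) missed the threshold (unadjusted p = 0.0195, adjusted p = 0.110). At an unadjusted p under 0.05 were 2 members, Gpx1 and Txnip, where 25.7% of all genes tested were.

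Whether Gpx1 passed depended on the libraries and the method. Without CML 5 the log2 fold change was 1.28 (adjusted p = 0.0364 by edgeR) and without CML-TKI 1 it was 1.14 (adjusted p = 0.0253 by edgeR), both past the threshold. With all 8 libraries it passed under limma-voom with quality weights (1.27, adjusted p = 6.25e-04) and not under DESeq2 (adjusted p = 0.0537). CML-TKI 1 was also the library with the lowest granulocyte and monocyte levels of its group, and whether these move Gpx1 was not tested.

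Gpx4 had 75.3, 66.6, 66.5 and 139.5 CPM in CML and 98.8, 59.8, 49.3 and 71.3 CPM in CML-TKI. The groups overlapped, with the highest level in CML 5 and the next in CML-TKI 1 (log2 fold change -0.31, SE 0.32, 95% interval -1.02 to 0.40, adjusted p = 0.591). Without CML 5 the value was 0.0085. The log2 ratio of Gpx1 over Gpx4 was 1.43 ± 0.081 (SD, n = 4) in CML and 2.67 ± 0.93 (SD, n = 4) in CML-TKI, with 1.34 in CML-TKI 1 and 2.74 to 3.46 in the other CML-TKI libraries (exact permutation p = 0.143, adjusted 0.179). The log2 ratio of Cat over Gpx1 fell short as well, at -1.78 ± 0.52 (SD, n = 4) and -2.76 ± 0.37 (SD, n = 4) (exact permutation p = 0.0571, adjusted 0.0952).

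Peroxiredoxins are peroxidases that use a reactive cysteine. Prdx1 is an abundant cytosolic form recycled by thioredoxin, and Prdx5 is found in mitochondria, peroxisomes and the cytosol. Prdx1 had 147.9, 138.2, 123.1 and 191 CPM in CML and 191, 210.1, 210.4 and 124 CPM in CML-TKI, with CML-TKI 4 down among the CML libraries. The log2 fold change was 0.29 (SE 0.24, 95% interval -0.24 to 0.82, adjusted p = 0.487).

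Prdx5 followed the pattern of Gpx1. It had 25.1, 25.1, 28.99 and 53.9 CPM in CML and 25.8, 65.4, 68.0 and 62.7 CPM in CML-TKI. CML-TKI 2 to 4 exceeded all CML libraries, while CML-TKI 1 lay at the CML level and CML 5 stood at 2.03 times the mean of CML 1 to 3 (geometric mean). The log2 fold change of 0.73 (SE 0.38, 95% interval -0.12 to 1.58) did not pass the test (adjusted p = 0.266). The log2 ratio of Prdx5 over Prdx1 was -2.20 ± 0.33 (SD, n = 4) in CML and -1.78 ± 0.78 (SD, n = 4) in CML-TKI (exact permutation p = 0.343, adjusted 0.343). The difference of 0.42 was 0.16 without CML-TKI 4 and 0.78 without CML-TKI 1.

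Txn1, the cytosolic thioredoxin that TXNIP binds, had 56.2, 64.3, 54.9 and 99.9 CPM in CML and 88.3, 84.3, 70.1 and 69.5 CPM in CML-TKI. All CML-TKI libraries were above CML 1 to 3 and below CML 5 (log2 fold change 0.18, SE 0.25, 95% interval -0.37 to 0.74, adjusted p = 0.694). Set against the gene of its inhibitor, the log2 ratio of Txnip over Txn1 was 3.26 ± 0.36 (SD, n = 4) in CML and 1.12 ± 0.36 (SD, n = 4) in CML-TKI, a difference of -2.14. The ratios, from 2.82 to 3.69 and from 0.77 to 1.47, did not overlap (exact permutation p = 0.0286, adjusted 0.0714 over the 5 ratios). With 4 against 4 libraries, the adjusted value could have been under 0.05 only if 3 of the 5 ratios had reached the smallest p.

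Nfe2l2 had 59.9, 53.3, 54.9 and 40.8 CPM in CML and 43.5, 101.6, 50.4 and 74.7 CPM in CML-TKI. CML-TKI 1 and 3 lay within the CML range and CML-TKI 2 and 4 above it (log2 fold change 0.38, SE 0.30, 95% interval -0.29 to 1.04, adjusted p = 0.469). Without CML-TKI 2 the log2 fold change was 0.10, and without CML-TKI 1 it was 0.54, and neither passed. Nfe2l2 was the one member in which CML 5 was lower than each of CML 1 to 3. NRF2 is controlled mainly at the protein level, which RNA levels do not measure.

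**Figure D2:**
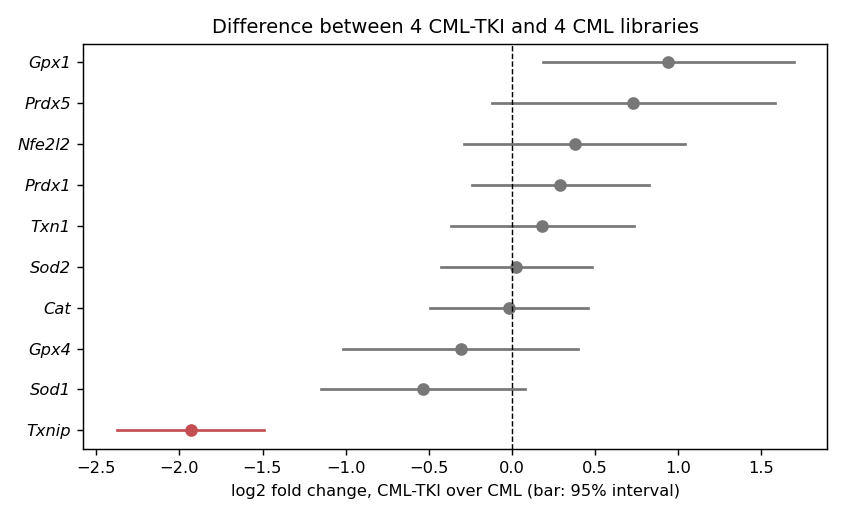
Log2 fold change of each member, CML-TKI over CML (4 libraries each), with its 95% interval as a bar, ordered by size, in red where the adjusted p is under 0.05. The intervals of 8 of the 10 members include 0, and those of Gpx1 (0.19 to 1.69) and Txnip (-2.37 to -1.49) do not.

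Levels can be set side by side between genes only per transcript length, here as the group mean of CPM per kilobase. In CML, Txnip at 232 and Gpx1 at 222 CPM per kilobase were at the top, followed by Sod1 at 92.2, Gpx4 at 90.7, Txn1 at 65.5 and Prdx1 at 65.4 CPM per kilobase. Below these came Prdx5 at 26.4, Cat at 24.8, Nfe2l2 at 21.1 and Sod2 at 15.1 CPM per kilobase. Neighbours in this order overlapped in their libraries, except between Gpx1 and Sod1, between Prdx1 and Prdx5 and between Nfe2l2 and Sod2.

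In CML-TKI, Gpx1 led with 426 CPM per kilobase, clear of Prdx1 at 80.2, Txn1 at 74.3, Gpx4 at 72.8, Sod1 at 63.1 and Txnip at 61.0 CPM per kilobase. Txnip thereby went from the first place to the sixth. The order ended with Prdx5 at 44.0, Nfe2l2 at 27.3, Cat at 24.6 and Sod2 at 15.4 CPM per kilobase, and only the steps below Gpx1 and above Sod2 were free of overlap. The annotated lengths run from 641 bases (Sod1) to 5861 bases (Sod2), and a shorter form in use would raise a gene's value.

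CML 5 stood apart from CML 1 to 3 in several members. It had the highest level of the 4 CML libraries in 7 of the 10 members, where it did so in 40.7% of all genes tested. For Gpx1, Prdx5 and Gpx4 it lay 1.06, 1.02 and 1.005 above the mean of CML 1 to 3 on the log2 CPM scale, and for Txn1 0.77 above. Their transcripts have 1072, 1262, 959 and 1051 bases. Sod1, the shortest at 641 bases, was 0.50 above, and Prdx1 (2294 bases) 0.49 above, while Sod2 (5861 bases) differed by 0.13 and Nfe2l2 (2475 bases) by -0.45. Over all tested genes the median difference was 0.69 for 737 genes with transcripts under 1000 bases, 0.34 for 2513 genes of 1000 to 2000 bases, -0.0081 for 4778 genes of 2000 to 4000 bases and -0.47 for 3228 longer genes. Members thus departed from the median of their length class in both directions. Txnip, with 2795 bases, differed by 0.19. With this length trend removed within libraries, Gpx1 had a log2 fold change of 1.15 (adjusted p = 0.0373 by edgeR), past the threshold, and Txnip -1.84 (adjusted p = 7.31e-04 by edgeR).

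**Figure D3:**
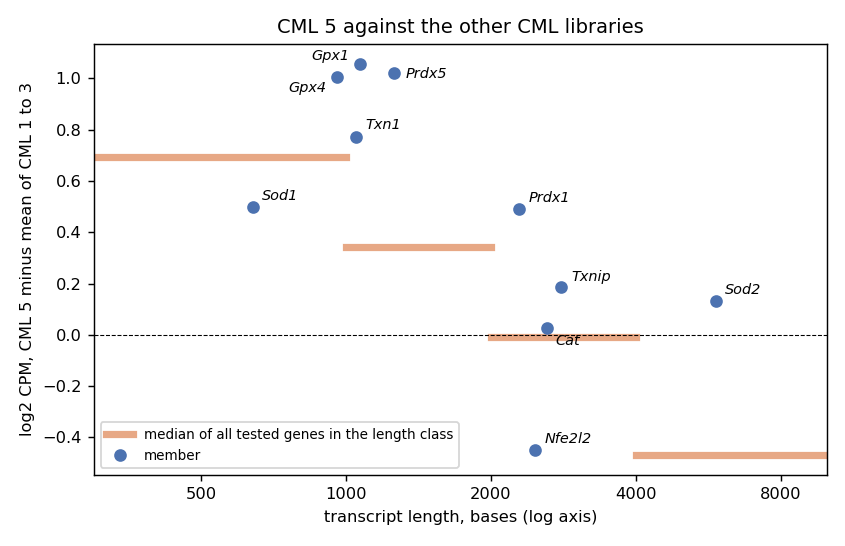
Log2 CPM of CML 5 minus the mean of CML 1 to 3 against transcript length (log axis) for the 10 members (points), with orange bars for the median of all tested genes in each length class (the outer classes are open-ended). Members with transcripts near 1000 bases lie up to 1.06 above 0, where the class medians were 0.69 under 1000 bases and 0.34 from 1000 to 2000 bases. Cat (0.025) and Txnip (0.19) lie near 0.

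The other genes of these pathways were counted from 12 lists of 148 genes, of which 139 were in the table and 125 were tested. Including the members, 10 were higher and 10 lower at an adjusted p under 0.05, or 16.0%, beside 10.2% of all genes. Apart from the members, 115 genes were tested, with 10 higher and 9 lower (16.5%). The groups did not overlap for 17 genes that were higher and 22 that were lower, or 31.2% of the 125, beside 23.4% of all genes tested (10.3% higher and 13.1% lower). With CML 1 to 3 summed to 1 library, 1 of the 20 passed, Txnip. Without CML 1, 9 of the 20 passed. The calls of Txnrd3, Mgst1 and Gstt3, which were among those lost, held in 15, 15 and 14 of 18 alternatives. A gene below without an adjusted p under 0.05, and Pgd, Taldo1 and Gstt1, were named after their values were seen.

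Among the alpha-arrestins and regulators of Txnip, 1 gene was higher and 2 were lower of 7 tested (median log2 fold change -0.69). Arrdc4, an alpha-arrestin induced by the same glucose-sensing factors, had 37.6, 47.5, 47.2 and 40.1 CPM in CML and 8.93, 13.3, 12.1 and 11.2 CPM in CML-TKI. The groups were far apart, with a log2 fold change of -1.93 (SE 0.27, adjusted p = 0.00262), the same to 2 decimals as that of Txnip. CML-TKI 1 was at 124% of the way from CML to the other CML-TKI libraries, again not in between. Mlx, the shared partner of MondoA and ChREBP, went the other way, with 17.8 to 27.4 CPM in CML and 41.4 to 108.5 CPM in CML-TKI (log2 fold change 1.47, SE 0.37, adjusted p = 0.0329). Mlxip, which encodes MondoA, had 92.8 to 141 CPM in CML and 95.5 to 159 CPM in CML-TKI, so that the groups overlapped widely (log2 fold change 0.058, adjusted p = 0.906). Mlxipl was too low to be tested, with 0 to 19 counts. The Arrdc4 call was lost in 2 of 18 alternatives and that of Mlx in 7.

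In the superoxide dismutase list, 0 of 3 genes tested passed (median log2 fold change -0.54), and Sod3, the secreted form, had 80 counts in CML-TKI 1, 0 in the other CML-TKI libraries and 0 to 11 in CML. In the list of catalase and glutathione peroxidases 0 of 5 passed (median 0.58). Of 10 peroxiredoxin and sestrin genes 1 was lower and 0 were higher (median -0.23). This gene was Sesn1, a p53 and FOXO target, with 79.1 to 91.8 CPM in CML and 15.5 to 35.3 CPM in CML-TKI (log2 fold change -1.68, SE 0.30, adjusted p = 0.00826). Prdx6 lay lower without overlap, at 310 to 462 and 206 to 266 CPM, but missed the threshold (-0.59, adjusted p = 0.0974 by edgeR). Prdx2, the peroxiredoxin abundant in red cells, had 125 to 214 CPM in CML and 72.5 to 245 CPM in CML-TKI (adjusted p = 0.742 by edgeR). It had 73.4 CPM in CML-TKI 3, the library rich in hemoglobin transcripts but with Klf1, Gata1, Epor, Car1 and Car2 below every CML library.

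Thioredoxins, reductases and thioredoxin-like genes lay mostly above 0, 17 of 20, with a median log2 fold change of 0.36, but 1 passed the threshold upward and 1 downward. Txndc5, a disulfide isomerase of the endoplasmic reticulum, had 99.5 to 146 CPM in CML and 171 to 325 CPM in CML-TKI (log2 fold change 1.10, SE 0.24, adjusted p = 0.0193, called in 13 of 18 alternatives). Txnrd3, a thioredoxin and glutathione reductase, had 23.1 to 28.5 CPM in CML and 3.10 to 8.77 CPM in CML-TKI (log2 fold change -2.21, SE 0.41, adjusted p = 0.0102). Txnrd1, the cytosolic reductase that recycles Txn1, had 154 to 197 CPM in CML and 86.6 to 403 CPM in CML-TKI, a wide overlap (adjusted p = 0.675).

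Gsr, glutathione reductase, had 49.6, 37.8, 42.7 and 54.0 CPM in CML and 129, 499.6, 290.4 and 299 CPM in CML-TKI. All CML-TKI libraries were above all CML libraries, with CML-TKI 1 lowest of its group (log2 fold change 2.72, SE 0.38, adjusted p = 0.00235), and it was the 1 gene called of 10 in its list (median 0.12). Gclc and Gclm, the subunits of the enzyme that starts glutathione synthesis, had log2 fold changes of 0.015 and 0.086 and did not pass. Of 8 glutaredoxins and methionine sulfoxide reductases (median -0.11), 1 was higher, Msrb1, with 5.31 to 11.1 CPM in CML and 26.97 to 117 CPM in CML-TKI (log2 fold change 3.31, SE 0.49, adjusted p = 0.00331).

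Of 14 glutathione S-transferases (median -0.57), 2 were higher and 2 were lower. Mgst1, the microsomal form, had 2.32 to 9.35 CPM in CML and 20.7 to 68.5 CPM in CML-TKI (log2 fold change 2.78, adjusted p = 0.0119), and Gstm1 13.1 to 23.1 and 24.5 to 125 CPM (2.14, adjusted p = 0.0160, called in 13 of 18 alternatives). Gstt3 was lower (-2.08, adjusted p = 0.0115), as was Gstt1 at a low level (-3.97, adjusted p = 0.0435), a call that held in only 6 of 17 alternatives. CML-TKI 1 stood at 22.5% of the way to the other CML-TKI libraries for Gstm1, 50.7% for Gsr, 53.9% for Msrb1 and 62.0% for Mgst1, but at 97.2% for Gstt3. Other called genes of the lists at or past the level of the other CML-TKI libraries, as Txnip and Arrdc4 were, included Txndc5 at 114%, Txnrd3 at 124% and Nfe2 at 129%. The granulocyte and monocyte sums of CML-TKI 1 were the lowest of its group, and their part was not tested.

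Nfe2l2's partners and targets were counted apart. Among 15 regulators 0 were higher and 2 lower (median -0.19), namely Nfe2, the erythroid and megakaryocyte relative (log2 fold change -1.27, adjusted p = 0.0109), and Nfe2l3 (-2.30, adjusted p = 0.0234), the latter called in 11 of 18 alternatives. The megakaryocyte markers summed to 1202 to 1446 CPM in CML and to 48.7 to 584 CPM in CML-TKI, and their part in the Nfe2 value was not tested. Keap1 lay lower without overlap, at 93.0 to 118 and 47.1 to 78.8 CPM, but missed the threshold (-0.63, adjusted p = 0.1003). Of 23 NRF2 targets 15 had a log2 fold change above 0 (median 0.18), and 5 were higher and 1 was lower, or 26.1%, beside 10.2% of all genes tested (6.29% higher and 3.93% lower). The targets summed to 1791 to 2444 CPM in CML and to 2568 to 3731 CPM in CML-TKI. The higher ones were Gsr, Gstm1, G6pdx (1.97, adjusted p = 0.00368), Pgd (1.90, adjusted p = 0.00581) and Taldo1 (1.27, adjusted p = 0.00655). G6pdx, Pgd and Taldo1 encode enzymes of the pentose phosphate pathway, as does Tkt of the same list, which did not pass (0.19, adjusted p = 0.672). Abcc1, an exporter of glutathione conjugates, was lower (-0.97, adjusted p = 0.0433), a call that held in 9 of 18 alternatives. Nqo1 (-1.05, adjusted p = 0.585), Hmox1 (2.08, adjusted p = 0.0906) and Srxn1 (-0.69, adjusted p = 0.504), often read as NRF2 markers, did not pass.

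The list of selenoprotein synthesis factors and of selenoproteins not in the other lists had 18 genes (median -0.023). Of these 1 was higher, Selenos (log2 fold change 1.56, adjusted p = 0.0240), and 1 lower, Selenow (-1.27, adjusted p = 0.0410), calls that held in 11 and 9 of 18 alternatives. All 3 FOXO factors tested were below 0 (median -0.71), and 0 passed. Foxo3 (-0.78, adjusted p = 0.0649 by edgeR) and Foxo4 (-0.71, adjusted p = 0.0765 by edgeR) lay lower without overlap, as 13.1% of all genes tested did, whereas Foxo1 overlapped.

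**Figure D4:**
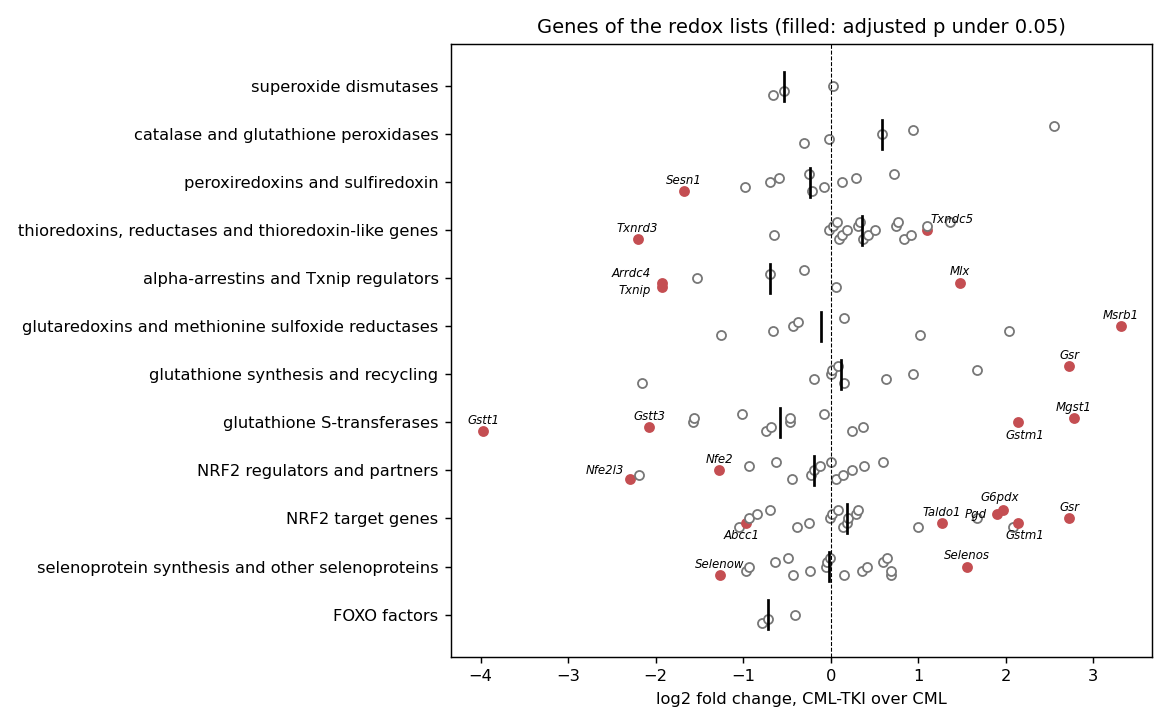
Log2 fold change (CML-TKI over CML) of every tested gene of the 12 lists, one row per list, with filled red points and names for an adjusted p under 0.05, open points for other genes and black bars for list medians. Called genes lie on both sides of 0, with 10 higher and 10 lower in all, and a gene in 2 lists is drawn in both.

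**Figure D5:**
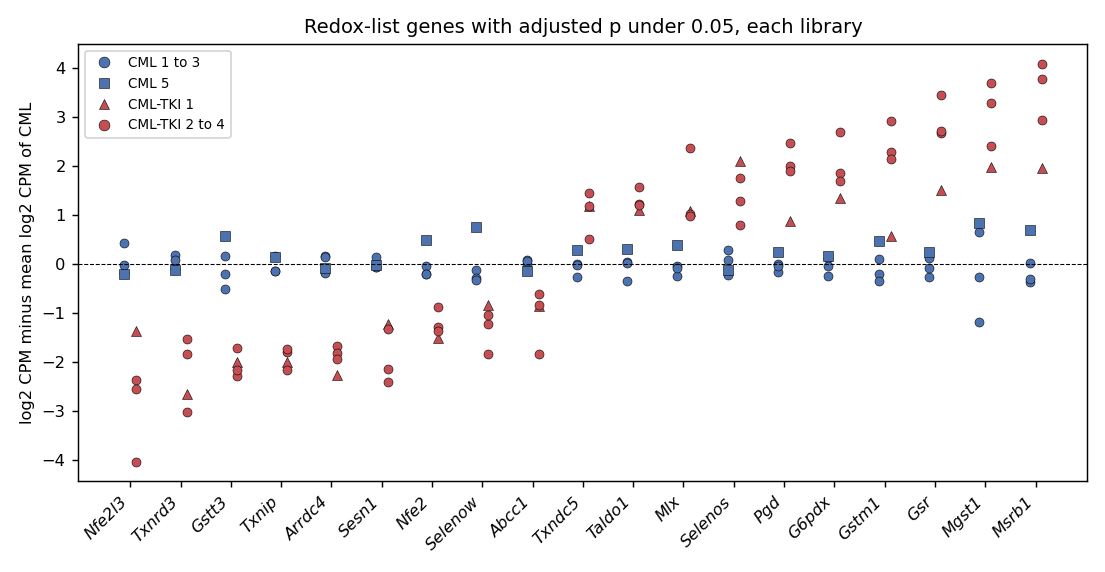
Log2 CPM of each library minus the CML mean for the list genes at an adjusted p under 0.05, leaving out Gstt1 for its low level, with CML in blue and CML-TKI in red. CML-TKI 1 (triangles) lies among the other CML-TKI libraries for Txnip and below them, toward CML, for Gsr, Gstm1, Mgst1 and Msrb1.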

How the data were processed

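RNA from 4 CML and 4 CML-TKI samples had been made into Nextera XT libraries, which do not mark strand, by the authors, who aligned paired reads to mm10 with STAR 2.6.1d and quantified RefSeq transcripts in Partek Flow 8.0 (the submitters' processing notes). The deposited values are estimated counts per gene, not normalized, and were rounded to whole numbers here. The fourth CML column, numbered 5, was assigned to the CML group only. Genes were kept by filterByExpr (minimum count 10), scaled by TMM and tested with edgeR 4.0.16 (quasi-likelihood, robust, R 4.3.3), with Benjamini-Hochberg adjustment over all 11937 genes and an adjusted p under 0.05. Log2 CPM used a prior count of 2, and ratios of 2 members used CPM plus 1 and exact permutation tests. Alternatives used RLE, total counts with and without Rn45s, other filters, DESeq2 1.42.0, limma 3.58.1 voom with quality weights, a replicate block, CML 1 to 3 summed, each library left out, and, added after seeing the data, a transcript length correction. The scripts were tested on simulated data. Members, lists and motifs were chosen with earlier results of these data known. From each list up to 3 genes a direction, past the threshold and averaging at least 3 in log2 CPM, were named by rule. Lengths are from GENCODE M21, and positions and promoters from RefSeq on GRCm38.p6; all 10 members had both. 0 columns of the table were left unused. Depth sets the counting error given with the lowest counts. The ChIP-seq and human cell line files were not used here.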

Additional observations from a re-analysis of the deposited data

Results flagged for a closer look

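Among 30 groups of 4 values (each member and each ratio in each group), 5 held a library far from its other 3. Chance gives about 1 in 20 for independent groups, but these share libraries and the ratios reuse the members' values. CML 5 lay far above CML 1 to 3 in Gpx1 (390 CPM), Gpx4 (139.5 CPM) and Prdx5 (53.9 CPM). It lay far above them in 6.81% of all genes tested and far below in 6.53%. CML 5 also had the lowest CML log2 ratio of Cat over Gpx1, at -2.55. In Prdx5, CML-TKI 1 stood far under CML-TKI 2 to 4, at 25.8 CPM.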

How the results depend on the processing

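Txnip passed in all 18 alternatives. The number of members past the threshold was 1, but 3 with voom (Gpx1, 1.27, and Prdx5, 1.02, in addition), 2 with the length trend removed, and 1 to 2 with each library left out. Over all genes, 1220 passed, against 2157 with DESeq2, 2563 with voom, 122 with CML 1 to 3 summed (fewer samples), 1957 at an adjusted p under 0.10 and 505 (without CML 1) to 2504 (without CML-TKI 1) with each library left out. Of the list genes 20 passed, against 31 with DESeq2, 33 with voom, 1 with CML 1 to 3 summed and 9 to 31 with each library left out. The replicate block on numbers 1 to 3 gave 193 genes, 2 list genes and 1 member, where the same 6 libraries without it gave 589 genes. Same-numbered libraries did not deviate together (r = -0.042, 0.097 and 0.093), so the numbers were not taken to pair samples, and the block gave Txnip -1.94 (adjusted p = 0.0284 by edgeR). Signs changed for Sod2 (total counts without Rn45s -0.10, no filter -0.0078, block -0.046, CML 1 to 3 summed -0.031, libraries left out -0.082 to 0.12), Cat (total counts 0.024, length trend removed 0.087, libraries left out -0.12 to 0.078), Gpx4 (libraries left out -0.53 to 0.0085) and Txn1 (CML 1 to 3 summed -0.037). None of these passed in any setting, and the cause was not tested. The median of all genes moved to -0.12 with total counts without Rn45s, -0.11 with voom and -0.13 with the block. Depth limits genes at a few CPM in CML-TKI 3.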

Other observations

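Some genes of these lists, not tested because too few libraries met the count filter, had most of their counts in CML-TKI 1. Me1, which makes NADPH from malate, had 304 counts there, 13 to 17 in CML libraries and 0 to 1 in the other CML-TKI libraries. Chac1, which degrades glutathione, had 138 counts there and at most 6 elsewhere, Ggt7 had 90 and at most 9 elsewhere, and Sod3 had 80 and at most 11 elsewhere. Gpx8 was different. This peroxidase of the endoplasmic reticulum had 50 counts in CML-TKI 1, 0 in the other CML-TKI libraries and 6 to 36 in CML. These genes were named after their values were seen.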
